A study of Mus musculus with 10 samples.

Results

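Transforming growth factor beta (TGF-beta) genes were examined on arrays of 10 mouse tumors, of which 5 were sarcomatoid tumors and 5 adenocarcinomas. The genes were the ligands Tgfb1, Tgfb2 and Tgfb3, the receptors Tgfbr1, Tgfbr2 and Tgfbr3, the latent complex gene Ltbp1, the signal carriers Smad3 and Smad7, and the induced gene Tgfbi. A probe belonged to the set when the scanner files gave one of these names, or a synonym, for a probe that was not a control. All 10 genes were found, with 16 of the 40196 probes tested, and 18916 genes had a named probe in all.

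The sarcomatoid tumors were the mammary tumors 323, 307 and 594 and the lung tumors 323 and 307. By label the tumors numbered 323 and 307 are sarcomatoid adenocarcinomas, and tumor 594 is a sarcomatoid carcinoma. The adenocarcinomas were the mammary tumors 105, 131, 470, 17 and 85. Per the study's methods, the adenocarcinomas and 1 of the sarcomatoid primaries carried Pik3caH1047R and Trp53R270H with MMTV-Cre. A further sarcomatoid primary carried Pik3caH1047R with MMTV-Cre and a spontaneous Trp53R245H mutation, and the last one Trp53R270H with MMTV-Cre. The compound mutant mice were on the C57BL/6 background, and these methods do not state that of the single mutant lines. The labels do not tie a genotype to a tumor number. Per these methods each lung tumor came from a primary with Pik3caH1047R, and tumor 594 has no lung tumor. Tumor 594 would therefore be the primary with Trp53R270H and without Pik3caH1047R. Which of tumors 323 and 307 had the spontaneous mutation is not given. The MMTV promoter drives Cre mainly in mammary epithelium, so the alleles are switched there and not in the stroma by design, although MMTV-Cre lines are known to recombine in some other tissues too. Each lung tumor grew after tail vein injection of cells cultured from the mammary tumor of the same number, so the 5 sarcomatoid tumors go back to 3 primaries. The groups therefore differ in genotype and passage as well as in histology. Only the lung tumors were passaged, so a fit on mammary tumors alone leaves passage and site out. Genotype and histology cannot be told apart.

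TGF-beta ligands are secreted inside a latent complex, in which a latent TGF-beta binding protein such as Ltbp1 tethers them to the matrix. The freed ligand binds the type II receptor Tgfbr2, which phosphorylates the type I receptor Tgfbr1, while Tgfbr3 (betaglycan) is a co-receptor that presents ligand. Active Tgfbr1 phosphorylates Smad3, which enters the nucleus with Smad4, and Smad7 is an induced inhibitor that closes the loop. In breast tissue the pathway restrains epithelial growth, and in carcinoma cells it is known to favour a spindle shape.

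Values are log2 ratios of tumor over a common reference RNA from the authors' normalized table, 1 array per tumor, so a difference of 1 is a ratio of 2. The dye label names Cy3 (green) for the tumor RNA, but green was the steadier channel between arrays (mean SD 0.737 against 0.975 for red on the log2 scale). Each table column also followed red over green of the array it belongs to, with r across probes between 0.868 and 0.926. Red was therefore read as the tumor, a direction that is likely but not certain, and if the label were right every sign below would turn. The share of probes well above background in the tumor channel ranged from 52.2% (tumor 85) to 83.0% (tumor 105). The number of arrays limits the precision.

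Tumor 470 stood apart from the other adenocarcinomas. Its mean correlation across probes was 0.660 with the sarcomatoid arrays and 0.494 with the other adenocarcinomas. Epithelial markers (12 genes such as Epcam and Cdh1) averaged -1.37 in it and 3.06 to 3.42 in the other 4 adenocarcinomas, on the log2 ratio scale. In the sarcomatoid tumors the same list averaged 0.89 to 1.65 in the mammary gland and -2.22 to -1.58 in the lung. Epithelial defining markers were thus lower in tumor 470 than its label implies, and results are given with and without it. Tumor 470 was picked from these same expression values, so leaving it out tends to widen the differences between the groups. The p-values and calls without it are therefore not a fair test and are given as a description.

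**Figure D1:**
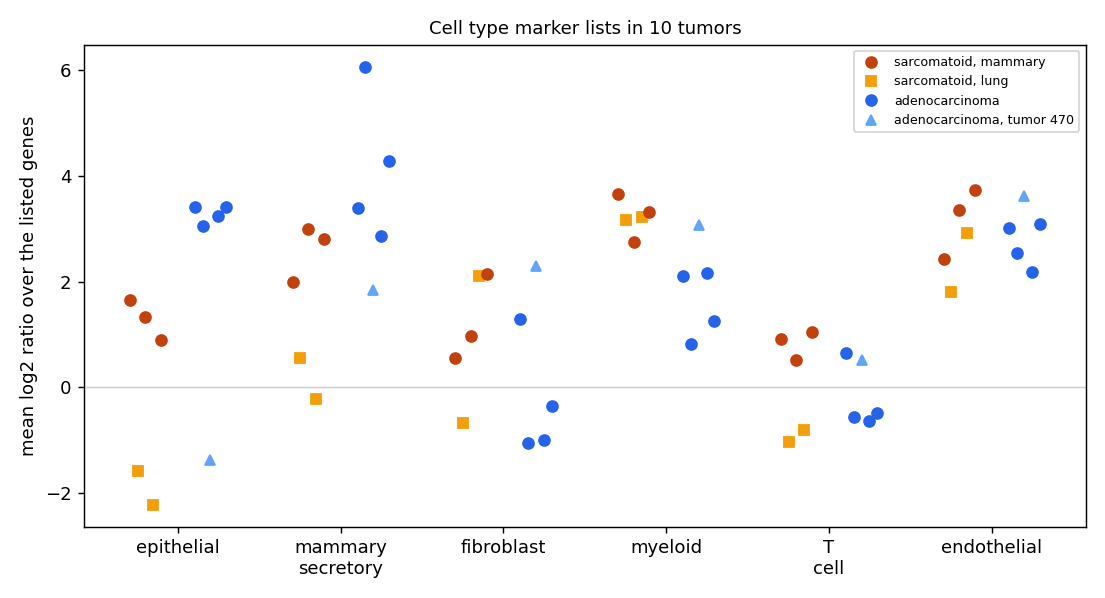
Mean log2 ratio (tumor over reference, vertical axis) of the genes of 6 cell type marker lists in each of the 10 tumors, 1 point per tumor. Tumor 470 (triangle) sits at -1.37 on the epithelial list, close to the lung tumors, and at 3.08 on the myeloid list, within the sarcomatoid range.

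The first comparison asked which members differ between sarcomatoid tumors and adenocarcinomas. The 2 signalling receptors, the latent binding protein Ltbp1 and the induced matrix protein Tgfbi had higher means in sarcomatoid tumors at an unadjusted p below 0.05, by 1.95-fold to 2.32-fold for the brightest probe of each gene. The 3 ligands, the co-receptor Tgfbr3, Smad3 and Smad7 did not differ at that level. No member passed the adjusted threshold of 0.05. Neither did any of the 40196 probes (0%), for which limma's adjusted p was 0.330 or more. Of the 16 member probes, 6 were higher and 0 lower at an unadjusted p below 0.05, where 4.98% of all probes were higher and 4.25% lower. The groups did not overlap for 0 of the 16 member probes and for 1.33% of all probes. Among mammary tumors alone, the brightest Tgfbr1 probe differed by 1.15 (limma p 0.0195, adjusted p 0.626). The difference was 1.07 for Tgfbr2 (limma p 0.0468, adjusted p 0.626) and 1.38 for Ltbp1 (limma p 0.0349, adjusted p 0.626). For Tgfbi it was 0.74 and the unadjusted call was lost (limma p 0.232, adjusted p 0.692). The calls of Tgfbr2 probe A_52_P251403 (0.48) and Ltbp1 probe A_52_P189946 (0.85) were lost too (limma p 0.210 and 0.0524, adjusted p 0.681 and 0.627). In bulk tumor RNA, more cells of a type and more RNA per cell cannot be told apart.

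**Figure D2:**
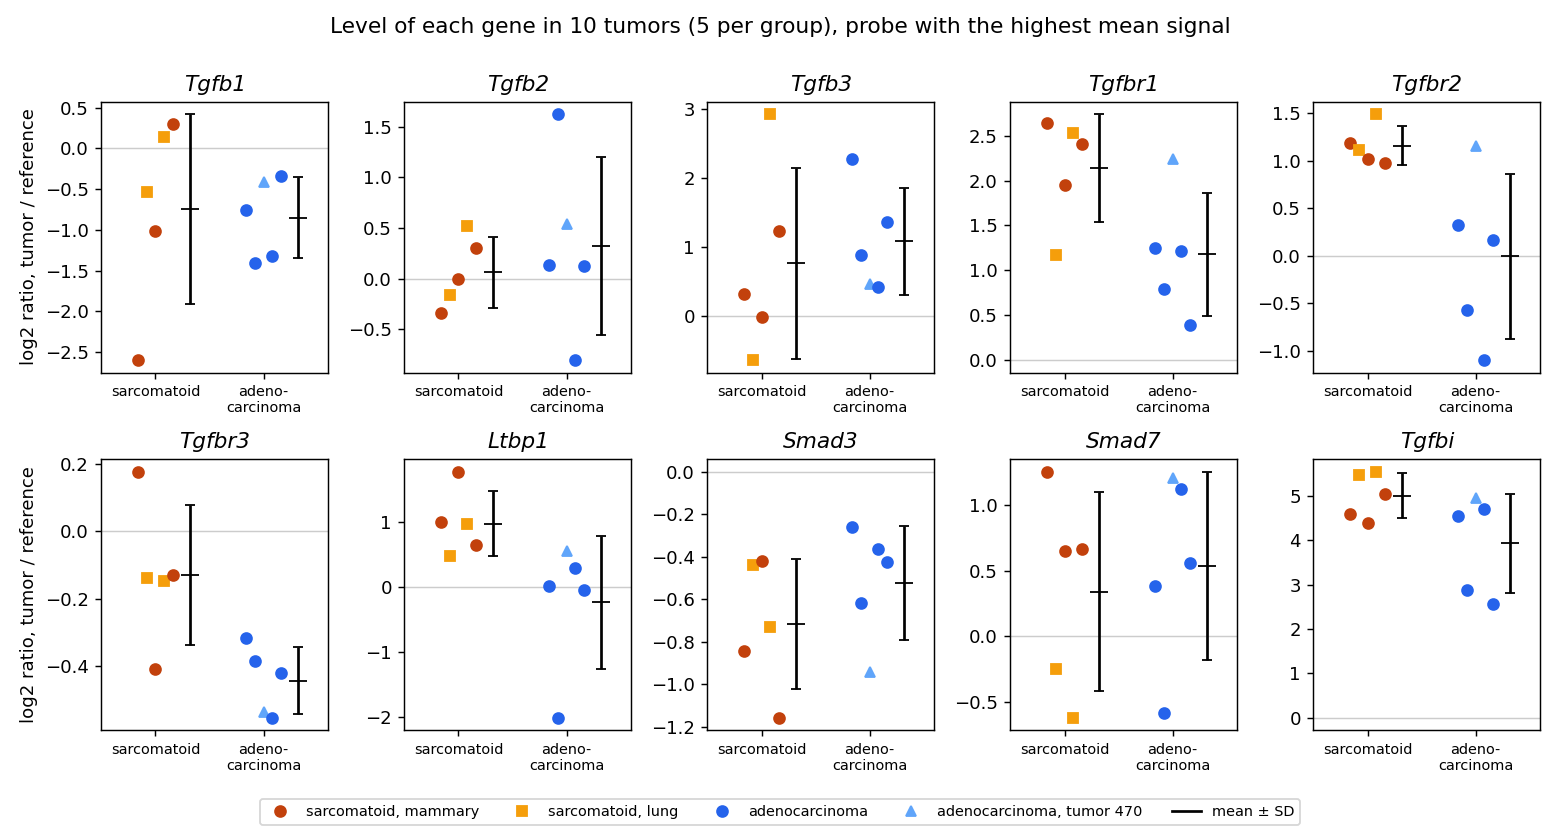
Log2 ratio of tumor over reference (vertical axis, a separate scale for each gene) for the brightest probe of each of the 10 genes, 1 point per tumor, with the mean and SD of each group of 5. For Tgfbr2 and Ltbp1 all 5 sarcomatoid tumors lie above the adenocarcinoma median, while for Tgfb1, Tgfb2, Tgfb3, Smad3 and Smad7 the groups run through each other.

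Tgfbr2 encodes the receptor that binds ligand and starts the signal. Its brightest probe (A_51_P450573, mm7 chromosome 9 from 115760364 to 115760423) read 1.19 in mammary tumor 323, 1.12 in lung tumor 323, 1.02 in mammary tumor 307, 1.49 in lung tumor 307 and 0.98 in tumor 594. The adenocarcinomas read 0.33 (105), -0.58 (131), 1.16 (470), -1.10 (17) and 0.17 (85). The sarcomatoid tumors were tightly grouped, and of the adenocarcinomas only tumor 470 reached their range. The means were 1.16 ± 0.20 (SD, n = 5) and -0.01 ± 0.87 (SD, n = 5), a log2 difference of 1.16 (95% interval 0.34 to 1.99). The limma p was 0.00989 (adjusted p 0.405), and an exact two-sided permutation test gave p = 0.0317. With 1 value per tumor number the exact p was 0.0893, where 0.0179 is the smallest possible.

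The size of the Tgfbr2 difference varied with the scan batch, of which there are 3, named after versions of the scanner protocol. It was 0.26 within scan batch 2 (307 and 594 against 105 and 470) and 1.81 within scan batch 3 (both lung tumors against 131, 17 and 85), and scan batch 1 held mammary tumor 323 alone. With scan batch as a term it was 1.10 (limma p 0.0209, adjusted p 0.487). Without tumor 470 it was 1.46 (SE 0.33, limma adjusted p 0.0544). Leaving out each array in turn gave 0.89 to 1.46, each at an unadjusted p below 0.05.

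A further Tgfbr2 probe (A_52_P251403, chromosome 9 from 115782405 to 115782464) gave a log2 difference of 0.78 (limma p 0.0334, adjusted p 0.495, exact permutation p 0.0317). From scanner intensities it was 0.35 (limma p 0.0352, adjusted p 0.473), and averaging the tumors of a number gave an exact permutation p of 0.125. It was well above background in 8 of the 10 tumors, all but 17 and 85. Tumor 594 at -0.99 lay among the adenocarcinomas (-1.33 to -0.36), and the other 4 sarcomatoid tumors (-0.30 to 0.45) lay above all of them. Left-out arrays moved its difference between 0.65 and 1.02, and the unadjusted call was lost without any of lung tumor 323, mammary or lung tumor 307, or tumors 105, 131 and 17. The last Tgfbr2 probe (A_52_P3811, from 115803054 to 115803113) was not well above background on any array, so no fold is given for it.

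Tgfbr1 encodes the type I receptor kinase. Its brightest probe (A_52_P4538, chromosome 4 from 47428363 to 47428422) read 2.64 (323), 1.17 (323 lung), 1.95 (307), 2.53 (307 lung) and 2.40 (594) in the sarcomatoid tumors. The adenocarcinomas read 1.25 (105), 0.80 (131), 2.24 (470), 1.22 (17) and 0.39 (85). Lung tumor 323 thus fell among the adenocarcinomas, and tumor 470 among the sarcomatoid tumors. The means were 2.14 ± 0.60 (SD, n = 5) and 1.18 ± 0.69 (SD, n = 5), a log2 difference of 0.96 (95% interval 0.12 to 1.80, limma p 0.0291, adjusted p 0.480). The exact permutation p was 0.0556. Without tumor 470 the difference was 1.23 (limma p 0.00525, adjusted p 0.123).

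The unadjusted call for Tgfbr1 was lost without any of mammary tumor 323, lung tumor 307, tumor 594, tumor 131 or tumor 85, with differences of 0.76 to 0.89. Within scan batch 2 the difference was 0.43 and within scan batch 3 it was 1.04, and with scan batch as a term it was 0.77, where the unadjusted call was lost (limma p 0.0657, adjusted p 0.556). Averaging the tumors of a number gave an exact permutation p of 0.0714. The other Tgfbr1 probe (A_51_P280137) spans 3659 bases of chromosome 4, from 47420840 to 47424498, more than its own length. It gave 0.31 (95% interval -0.79 to 1.41, limma p 0.549, adjusted p 0.896) and was well above background in the reference channel on 2 of 10 arrays. With scan batch as a term it gave 0.72 (limma p 0.0388, adjusted p 0.514). The unadjusted call without that term is that of the brighter probe, whose difference lies inside the interval of the other.

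Ltbp1 encodes the protein that holds latent TGF-beta in the matrix. Its brightest probe (A_51_P281716, chromosome 17 from 73681221 to 73681354) read 1.01 (323), 0.48 (323 lung), 1.78 (307), 0.97 (307 lung) and 0.65 (594) in the sarcomatoid tumors. The adenocarcinomas read 0.02 (105), -2.01 (131), 0.56 (470), 0.30 (17) and -0.04 (85). Of the 5 sarcomatoid tumors, 4 lay above every adenocarcinoma, and lung tumor 323 lay just under tumor 470. This made a log2 difference of 1.21 (95% interval 0.21 to 2.22, limma p 0.0219, adjusted p 0.462, exact permutation p 0.0159). Tumor 131 carried part of it, since the difference without that tumor was 0.77. Without mammary tumor 307 it was 1.01 (limma p 0.0584, adjusted p 0.588). With 1 value per tumor number it was 1.16 (limma p 0.0608, adjusted p 0.747, exact permutation p 0.0714), so the unadjusted call was lost there too.

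The other Ltbp1 probe (A_52_P189946, chromosome 17 from 73515726 to 73515785) gave 0.90 (95% interval 0.22 to 1.58, limma p 0.0134, adjusted p 0.419, exact permutation p 0.0397). From scanner intensities it was 0.49 (limma p 0.0125, adjusted p 0.413), and the tumors of a number averaged gave an exact permutation p of 0.125. Tumor 594 at -1.15 was the lowest sarcomatoid tumor and lay below 4 of the adenocarcinomas, while the other 4 sarcomatoid tumors (-0.16 to 0.28) lay above all adenocarcinomas (-1.62 to -0.63). The probes thus placed tumor 594 differently, and both gave an unadjusted p below 0.05. Within scan batches 2 and 3 the differences were 0.92 and 1.31 for the brightest probe and 0.67 and 0.97 for the other.

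Tgfbi encodes a secreted matrix protein that TGF-beta is known to induce. Its probe (A_51_P212754, chromosome 13 from 55730801 to 55730860) read 4.58 (323), 5.46 (323 lung), 4.39 (307), 5.55 (307 lung) and 5.04 (594) in the sarcomatoid tumors. The adenocarcinomas read 4.55 (105), 2.87 (131), 4.95 (470), 4.70 (17) and 2.57 (85). Every tumor was far above the reference, and the adenocarcinomas fell into 3 close to the sarcomatoid level and 2 well under it. The log2 difference was 1.07 (95% interval 0.0036 to 2.15, limma p 0.0494, adjusted p 0.541), and the exact permutation p was 0.103. Within scan batch 2 the difference was -0.04 and within scan batch 3 it was 2.12, so it was not present in the batch with 2 tumors of each group. With scan batch as a term it was 1.14 and the unadjusted call was lost (limma p 0.0658, adjusted p 0.556), as it was with 1 value per tumor number (1.08, limma p 0.0888, adjusted p 0.754). The unadjusted call was also lost without any of tumors 323, 323 lung, 307 lung, 594, 131 or 85, with differences of 0.73 to 1.18.

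**Figure D3:**
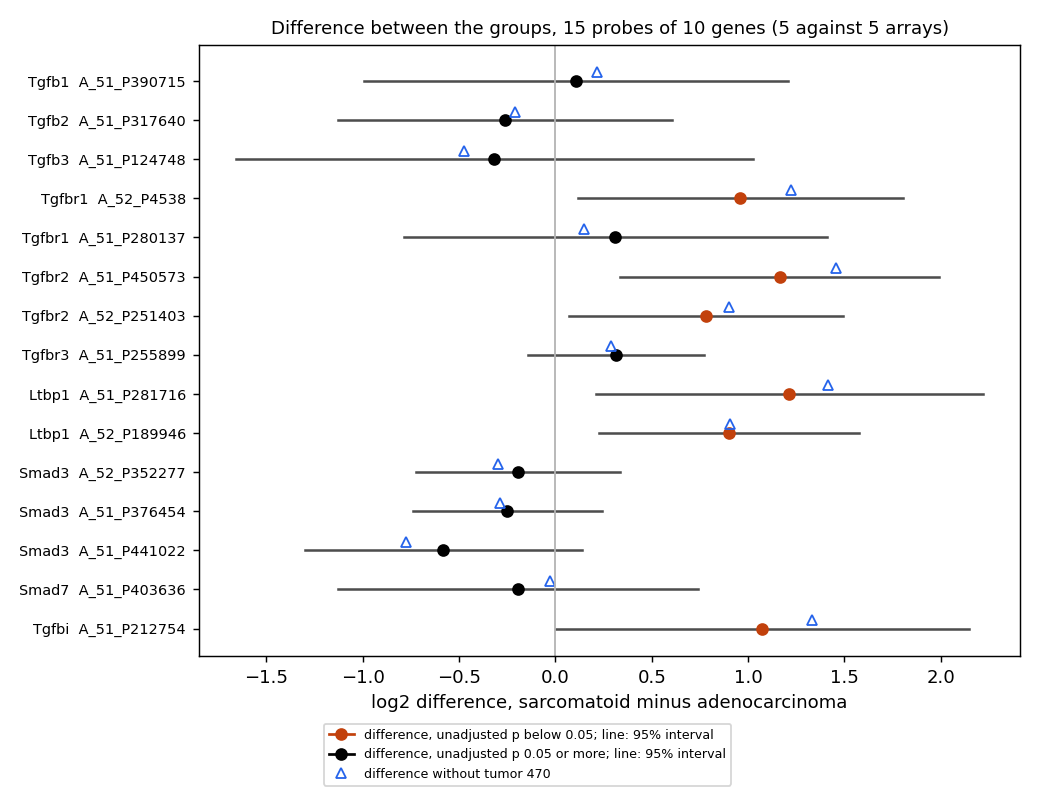
Log2 difference, sarcomatoid minus adenocarcinoma (horizontal axis), for the 15 member probes that were above background, with the 95% interval as a line and the difference without tumor 470 as an open triangle. The 6 probes of Tgfbr1, Tgfbr2, Ltbp1 and Tgfbi with an unadjusted p below 0.05 lie between 0.78 and 1.21, and no interval of a ligand or Smad probe leaves 0.

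Myeloid markers had higher means in the same tumors. Of the 10 myeloid markers, such as Csf1r and Tyrobp, 8 were higher in sarcomatoid tumors at an unadjusted p below 0.05 and none passed the adjusted threshold (median log2 difference 1.58). The mean of the list was 2.76 to 3.67 in sarcomatoid tumors, 0.82 to 2.17 in 4 adenocarcinomas and 3.08 in tumor 470, and all 10 genes were well above background on all arrays. Without tumor 470, 9 myeloid markers had an unadjusted p below 0.05 and 3 passed the adjusted threshold. Of the 10 fibroblast markers 9 had a higher mean in sarcomatoid tumors, none at an unadjusted p below 0.05 (median log2 difference 0.74) and 3 without tumor 470 (median 1.19), and the list averaged 2.29 in tumor 470 and -1.05 to 1.30 in the other adenocarcinomas. All 12 epithelial markers had lower means in sarcomatoid tumors (median log2 difference -2.29), 5 of them at an unadjusted p below 0.05 and none past the adjusted threshold. Without tumor 470 these numbers were 11 and 4 (median -3.09). The part of these cells in the Tgfbr1, Tgfbr2, Ltbp1 and Tgfbi values was not tested.

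The start regions of the 4 genes with an unadjusted call are shown, since they lay higher together. The sequences are the 250 bases before the outermost RefSeq start of each gene (GRCm38.p6), 5′ to 3′ on the strand of the gene. They lie at chr9:116175364-116175613 (minus strand) for Tgfbr2, chr4:47352972-47353221 (plus) for Tgfbr1, chr17:75005279-75005528 (plus) for Ltbp1 and chr13:56609336-56609585 (plus) for Tgfbi. Capitals mark CAGAC (letters of a Smad site) and GGGCGG (letters of a GC box), each on both strands.
Tgfbr2: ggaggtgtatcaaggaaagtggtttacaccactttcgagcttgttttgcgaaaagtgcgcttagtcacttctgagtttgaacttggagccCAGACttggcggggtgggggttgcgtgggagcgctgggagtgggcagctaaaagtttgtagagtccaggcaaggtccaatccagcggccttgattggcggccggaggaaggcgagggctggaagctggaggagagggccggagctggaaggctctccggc
Tgfbr1: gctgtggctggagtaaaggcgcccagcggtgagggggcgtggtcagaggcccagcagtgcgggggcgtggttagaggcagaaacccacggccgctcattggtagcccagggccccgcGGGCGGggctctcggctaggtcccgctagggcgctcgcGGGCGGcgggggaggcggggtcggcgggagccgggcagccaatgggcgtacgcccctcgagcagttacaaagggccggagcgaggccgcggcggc
Ltbp1: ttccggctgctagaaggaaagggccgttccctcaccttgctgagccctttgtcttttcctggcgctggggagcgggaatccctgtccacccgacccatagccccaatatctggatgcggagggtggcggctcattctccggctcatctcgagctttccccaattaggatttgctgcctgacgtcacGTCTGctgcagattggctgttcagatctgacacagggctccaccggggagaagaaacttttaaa
Tgfbi: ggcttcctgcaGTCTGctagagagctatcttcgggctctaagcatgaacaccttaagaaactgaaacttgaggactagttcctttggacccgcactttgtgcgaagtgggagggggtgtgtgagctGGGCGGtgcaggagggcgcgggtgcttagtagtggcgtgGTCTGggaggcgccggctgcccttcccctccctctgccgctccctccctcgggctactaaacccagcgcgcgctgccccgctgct
The Tgfbr2 and Ltbp1 windows held CAGAC at 1 place each and the Tgfbi window at 2. GGGCGG was at 2 places in the Tgfbr1 window, which held no CAGAC, and at 1 in the Tgfbi window. Of the 7 members with a window, 4 held CAGAC and 4 held GGGCGG. Among those without an unadjusted call, Tgfb2 held CAGAC at 2 places, and GGGCGG was at 5 in Tgfb1 and 2 in Smad3. Neither run of letters was thus particular to the 4 genes shown. Of all 32851 promoter windows of this length, 42.2% held CAGAC and 32.7% held GGGCGG. The AP-1 letters TGANTCA and the E-box letters CACCTG, also searched on both strands, were not in the windows of the 7 members in the table, where 6.75% and 17.2% of all windows held them. A match is a run of letters, not a shown binding site.

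For the ligands no difference between the groups was detected. Tgfb1, the main ligand, was measured by 10 spots of probe A_51_P390715 (chromosome 7 from 22478890 to 22478949) and read -2.60 (323), -0.53 (323 lung), -1.02 (307), 0.14 (307 lung) and 0.30 (594) in sarcomatoid tumors. The adenocarcinomas read -0.76 (105), -1.41 (131), -0.41 (470), -1.32 (17) and -0.34 (85). Mammary tumor 323 was thus the lowest of all 10, with its 10 spots running from -3.40 to -2.10 (SD 0.41, against at most 0.07 between spots on any other array), and tumor 594 was the highest. Between the groups the log2 difference was 0.11 (95% interval -0.99 to 1.21, limma p 0.837, adjusted p 0.969), and without mammary tumor 323 it was 0.57.

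Tgfb2, a ligand of development and wound repair, had means of 0.06 ± 0.35 (SD, n = 5) and 0.32 ± 0.88 (SD, n = 5) at probe A_51_P317640 (chromosome 1 from 186149057 to 186149116). This gave a log2 difference of -0.26 (95% interval -1.13 to 0.60, limma adjusted p 0.889). Adenocarcinomas 131 at 1.63 and 17 at -0.81 were the highest and lowest of all tumors, so the spread lay within that group. Tgfb3, a ligand of epithelial fusion and mammary involution, had means of 0.76 ± 1.39 (SD, n = 5) and 1.08 ± 0.77 (SD, n = 5) at probe A_51_P124748 (chromosome 12 from 84058334 to 84058393). Both the highest and the lowest of the 10 tumors were lung tumors, 307 at 2.92 and 323 at -0.65. Its log2 difference was -0.32 (95% interval -1.66 to 1.02, limma adjusted p 0.916).

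Tgfbr3, the co-receptor, differed little in size but with little spread. Its probe (A_51_P255899, chromosome 5 from 106286319 to 106286378) read 0.18 (323), -0.14 (323 lung), -0.41 (307), -0.15 (307 lung) and -0.13 (594) in sarcomatoid tumors. The adenocarcinomas read -0.32 (105), -0.39 (131), -0.54 (470), -0.55 (17) and -0.42 (85). All sarcomatoid tumors but mammary tumor 307 lay above every adenocarcinoma. The log2 difference was 0.31 (95% interval -0.14 to 0.77, limma p 0.159, adjusted p 0.689). From scanner intensities it was 0.14 (limma p 0.0995, adjusted p 0.602), and from scanner log ratios 0.09 (limma p 0.633, adjusted p 0.906). The probe was well above background in the reference channel on 8 of 10 arrays. On the normalized values the exact permutation test gave p = 0.0238, and 0.0179 with 1 value per tumor number, the smallest that design allows. These exact values are 1 of 16 such tests and are not adjusted.

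Smad3, the signal carrier, had 3 probes and lay under the reference in every tumor at the brightest one. That probe (A_52_P352277, chromosome 9 from 63675794 to 63675853) had means of -0.72 ± 0.31 (SD, n = 5) in sarcomatoid tumors and -0.52 ± 0.27 (SD, n = 5) in adenocarcinomas. A log2 difference of -0.19 resulted (95% interval -0.72 to 0.33, limma adjusted p 0.858). The others gave -0.25 (A_51_P376454, which has no coordinates in the files) and -0.58 (A_51_P441022, chromosome 9 from 63678155 to 63678214), with limma adjusted p of 0.783 and 0.620. Without tumor 470 the last was -0.78 (limma p 0.0330, adjusted p 0.296), the only lower member probe among the 7 then at an unadjusted p below 0.05. All 3 probes gave a lower mean in sarcomatoid tumors, none beyond the spread between tumors.

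Smad7, the inhibitor, read 1.25 (323), -0.25 (323 lung), 0.65 (307), -0.62 (307 lung) and 0.67 (594) in sarcomatoid tumors at probe A_51_P403636. The adenocarcinomas read 0.38 (105), -0.58 (131), 1.20 (470), 1.12 (17) and 0.56 (85). Only the lung tumors and tumor 131 lay below the reference. The log2 difference between the groups was -0.20 (95% interval -1.13 to 0.74, limma adjusted p 0.927).

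Leaving out tumor 470 raised the number of calls over the array. Without it, 618 of 40196 probes (1.54%) passed the limma adjusted threshold and 0 of the 16 member probes did, Tgfbr2 being closest. With 16 member probes, 0 is near the share over all probes and is no result about the members. At an unadjusted p below 0.05, 6 member probes were then higher and 1 lower, where 7.46% of all probes were higher and 6.72% lower. Over the 10 brightest probes the median log2 difference was 0.21 with all tumors, against 0.01 over all 18916 genes.

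The other genes of the pathway, 57 measured of 58 listed, had a median log2 difference of 0.05 (29 higher), and 3 were higher and 4 lower at an unadjusted p below 0.05. None passed the adjusted threshold, with or without tumor 470. Acvr1b, the type I receptor for activin, had the lowest p of these genes. It was at -0.69 ± 0.78 (SD, n = 5) in sarcomatoid tumors and 0.94 ± 0.73 (SD, n = 5) in adenocarcinomas, a log2 difference of -1.63 (limma p 0.00287, adjusted p 0.337). Acvr2b, a type II activin receptor, differed by -1.27 (limma p 0.0305, adjusted p 0.485). Both had lower means in the tumors where Tgfbr1 and Tgfbr2 had higher ones, while the other 4 genes of the list, Acvr2a, Bambi, Eng and Acvrl1, had an unadjusted p above 0.05.

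Among the 10 measured genes of the latent complex and its activation, 1 was higher and 1 lower. Thbs1, a matrix protein that can activate latent TGF-beta, differed by -1.04 (limma p 0.00643, adjusted p 0.386). Emilin1, a matrix protein that limits processing of the Tgfb1 precursor, differed by 1.73 (limma p 0.0411, adjusted p 0.519). Means of this list thus lay on both sides, with a median of 0.16. Of the 3 further Smads, Smad6, an inhibitor of BMP signals, differed by -1.06 (limma p 0.0204, adjusted p 0.453). Smad4, the shared partner, differed by -0.09 (limma p 0.731, adjusted p 0.945).

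Of the 18 genes listed as known targets, 11 had higher means in sarcomatoid tumors, 2 of them at an unadjusted p below 0.05 (median log2 difference 0.13). Fn1 (fibronectin) was at -0.22 ± 0.98 (SD, n = 5) in sarcomatoid tumors and -1.85 ± 1.26 (SD, n = 5) in adenocarcinomas, a log2 difference of 1.63 (limma p 0.0217, adjusted p 0.462). Cdkn2b, the cell cycle inhibitor p15, differed by 1.24 (limma p 0.0457, adjusted p 0.531). The remaining 16 had an unadjusted p above 0.05.

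In the activin ligand list (5 genes), the Smad regulators (12 genes) and the ligand-binding matrix proteins (4 genes) no gene had an unadjusted p below 0.05. The lowest p belonged to Inhbb (-1.28, limma p 0.0923, adjusted p 0.607) and Inha (-0.78, limma p 0.137, adjusted p 0.667), which encode inhibin and activin subunits. Among the regulators they belonged to the corepressor Tgif1 (-0.54, limma p 0.133, adjusted p 0.661) and the ubiquitin ligase Nedd4l (-0.36, limma p 0.230, adjusted p 0.747). The matrix proteins all had higher means in sarcomatoid tumors, with a median of 1.01. Vasn differed by 1.17 (limma p 0.147, adjusted p 0.678) and Dcn (decorin) by 1.58 (limma p 0.187, adjusted p 0.715). Without tumor 470, 1 gene of the activin list and 2 of the matrix list had an unadjusted p below 0.05, none past the adjusted threshold, and Dcn differed by 2.69 (limma adjusted p 0.102).

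**Figure D4:**
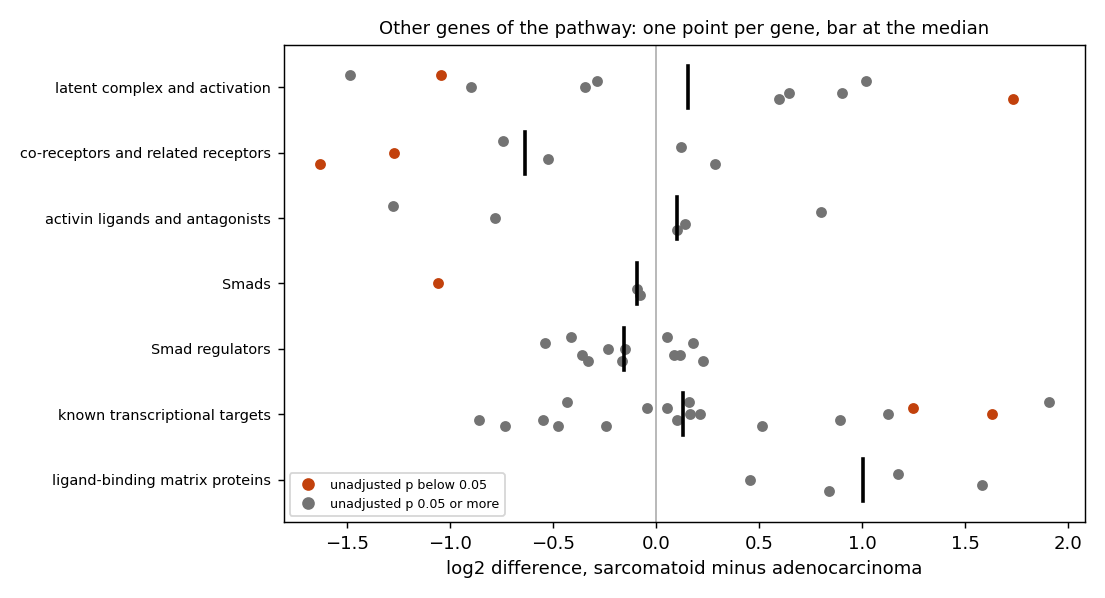
Log2 difference, sarcomatoid minus adenocarcinoma (horizontal axis), of the other pathway genes by list, 1 point per gene with its brightest probe, and the median of each list as a black bar. The receptor list has its median at -0.63 and the matrix list at 1.01, and 7 genes have an unadjusted p below 0.05.

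The second comparison set the 2 lung sarcomatoid tumors against the 3 mammary ones. No scan batch held both kinds, so a fit with scan batch as a term rests on the adenocarcinomas of scan batches 2 and 3, and site and passage through culture cannot be told apart. Of all probes 10 (0.0249%) passed the limma adjusted threshold, and 0 of the 16 member probes did. At an unadjusted p below 0.05, 1 member probe was higher and 2 were lower in the lung, where 5.59% of all probes were higher and 5.1% lower. Within the pairs of one tumor number, 3 of the 10 members were higher in both lung tumors, 2 were lower in both and 5 went opposite ways.

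Smad7 had the lowest unadjusted p among the brightest probes of the members. It averaged -0.43 ± 0.26 (SD, n = 2) in the lung and 0.85 ± 0.34 (SD, n = 3) in the mammary gland. These few values did not overlap, but the share of all probes separated in this way was not counted. The log2 difference was -1.29 (95% interval -2.41 to -0.16, limma p 0.0285, adjusted p 0.418), and within the pairs it was -1.49 (tumor 323) and -1.26 (tumor 307). With tumor number as a block, in a fit on the pairs alone, it was -1.38 (limma p 0.0171, adjusted p 0.288). With scan batch as a term it was -0.66 (limma p 0.406, adjusted p 0.940). The unadjusted call was lost without any of mammary tumor 323, lung tumor 323 or lung tumor 307, with differences of -1.47 to -1.09.

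Ligand levels in the lung followed no common course. Tgfb1 was higher in both lung tumors than in their mammary tumors, by 2.06 (tumor 323) and 1.16 (tumor 307), yet mammary tumor 594 was higher still. Its log2 difference was 0.91 (95% interval -0.65 to 2.46, limma p 0.225, adjusted p 0.681) and 0.16 without mammary tumor 323. With tumor number as a block it was 1.61 (limma p 0.0131, adjusted p 0.273), in a fit on the pairs alone, without tumor 594. Tgfb3 had a lung minus mammary value of -0.95 in tumor 323 and of 2.94 in tumor 307. Tgfb2 was higher in both, by 0.18 and 0.52.

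Tgfbi was higher in both lung tumors, by 0.88 (tumor 323) and 1.15 (tumor 307), and its 2 highest values of all 10 tumors were those of the lung. Over all 5 tumors the log2 difference was 0.83 (95% interval -0.69 to 2.36, limma p 0.254, adjusted p 0.704), and with scan batch as a term it was 2.16 (limma p 0.0408, adjusted p 0.759). Ltbp1 was lower in both, with lung minus mammary values of -0.54 and -0.81 and a log2 difference of -0.43 (95% interval -1.92 to 1.07, limma adjusted p 0.869). Tgfbr1 went opposite ways in the pairs at its brightest probe (-1.48 and 0.58). The lung minus mammary values were -0.07 and 0.48 for Tgfbr2, -0.32 and 0.26 for Tgfbr3 and 0.40 and -0.31 for Smad3. For Tgfbr2 the log2 difference over all 5 tumors was 0.24 (limma p 0.675, adjusted p 0.917), and with scan batch as a term 1.55 (limma p 0.0436, adjusted p 0.767).

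The higher member probe in the lung was the dimmer Tgfbr1 probe (A_51_P280137), which read 2.38 (323) and 2.40 (307) in the lung and 0.30 (323), 1.27 (307) and 0.84 (594) in the mammary gland. Its log2 difference was 1.59 (limma p 0.0202, adjusted p 0.390), and without mammary tumor 323 or either lung tumor the unadjusted call was lost, but from the scanner intensities it was 0.11 (limma p 0.410, adjusted p 0.914). Adenocarcinoma 17 of the same scan batch read 2.42 at this probe. The second lower probe was the Tgfbr2 probe that was not above background on any array.

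**Figure D5:**
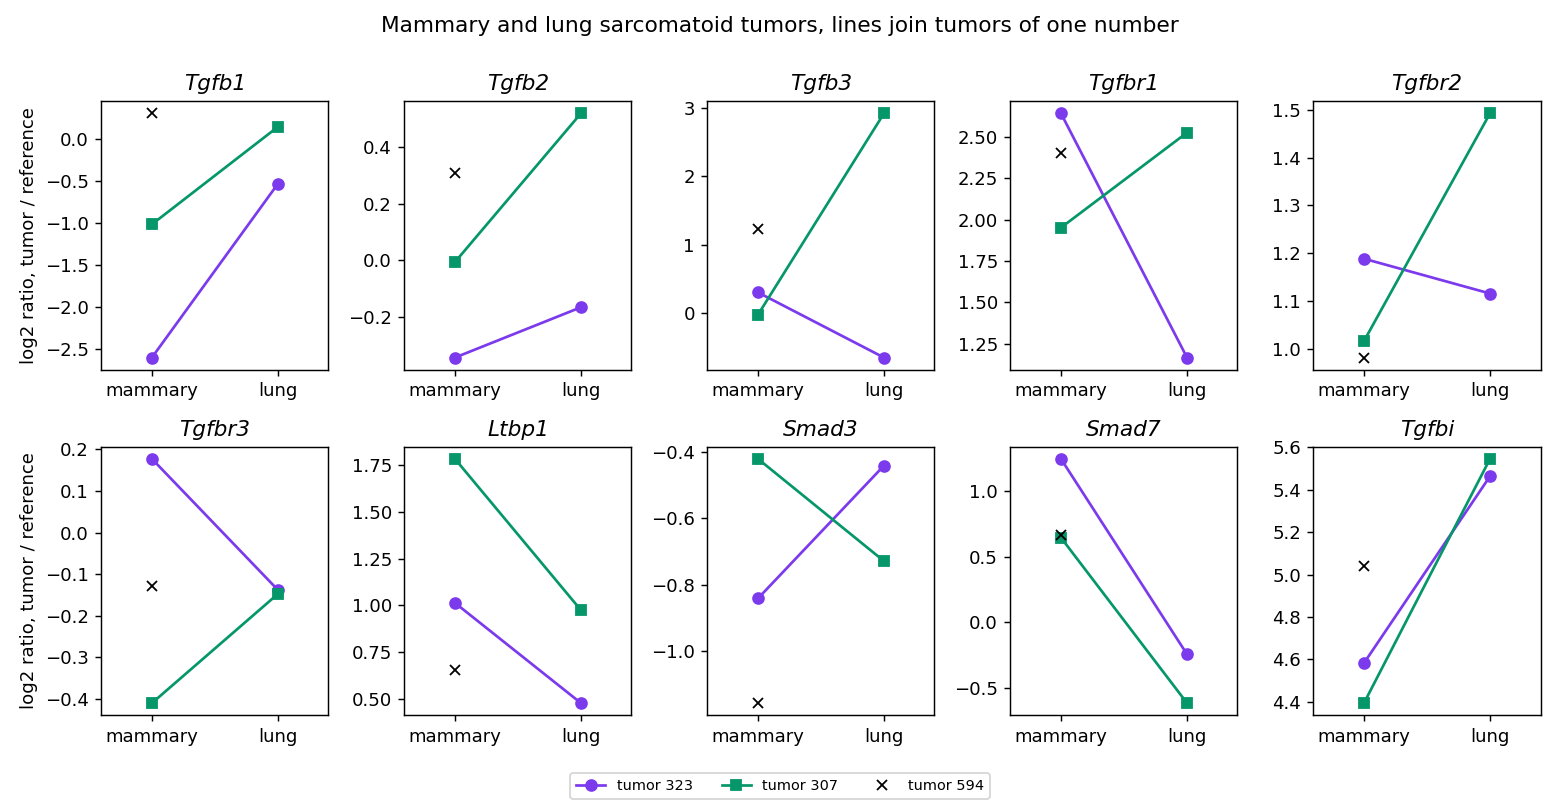
Log2 ratio of tumor over reference (vertical axis, a separate scale for each gene) in mammary and lung sarcomatoid tumors, with a line joining the tumors of one number and a cross for mammary tumor 594. Smad7 and Ltbp1 go down along both lines, Tgfb1, Tgfb2 and Tgfbi go up along both, and for the other 5 genes one line goes up and the other down.

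Cell type markers differed between the sites as well. Epithelial markers were lower in the lung for 6 of 12 genes at an unadjusted p below 0.05, and T cell markers for 4 of 7. At that level smooth muscle and myoepithelial markers were lower for 3 of 6 (median log2 difference -1.85) and mammary secretory markers for 2 of 6 (median -2.54). Of these lists, 9 epithelial, 2 T cell, 4 smooth muscle and myoepithelial and 1 secretory gene were well above background on all arrays. The lung epithelium list averaged 0.10 to 0.53 at the lung site and -0.09 to 0.29 in sarcomatoid tumors of the mammary gland. Of its 10 genes 6 had a higher mean in the lung, 1 of them at an unadjusted p below 0.05. Only 2 of the 10 were well above background on all arrays, so the list says little about lung tissue. The myeloid list averaged 3.18 to 3.23 in the lung and 2.76 to 3.67 in the mammary sarcomatoid tumors. The part of other cells in the Smad7 difference was not tested. Of the other pathway genes, 0 were higher and 5 lower in the lung at an unadjusted p below 0.05, and none passed the adjusted threshold.

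The genes whose profile over the 10 arrays was most like that of a member were taken from 11629 named genes above background on all arrays, by Pearson's r. For Tgfbr1 they were Ms4a7 (0.967), best known from macrophages, and Il10rb (0.960), a cytokine receptor chain. For Tgfbr2 Taf12 (0.945) is given, for Ltbp1 Cks1b (0.941) and Uba6 (0.935), and for Tgfbi Sgpl1 (0.960) and Cntln (0.951). The ligands were closest to Wdr62 (0.923) and Numbl (0.922) for Tgfb1, Rabac1 (0.928) and Mlycd (0.923) for Tgfb2, and Ctdsp2 (0.926) and Myo1d (0.919) for Tgfb3. The remaining genes were Mtrf1 (0.927) for Tgfbr3, Gtf3c2 (0.967) and Efna4 (0.946) for Smad3, and Rnf168 (0.942) and Stam2 (0.931) for Smad7. These are among the highest of many values over 10 arrays, of which the lung and mammary tumors of a number share an origin, and they are given as a description.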

How the data were processed

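RNA of 10 tumors was hybridised to Agilent arrays, 1 array each. The deposited scanner files hold spot intensity in both channels and a log10 ratio. The authors deposited a normalized log2 table, for which their methods and the labels name limma without the steps. Of 42515 rows 134 were controls, spots of a probe were averaged and 40196 probes were tested, with 24114 named by symbol, 7622 by synonym and 8460 unnamed (GRCm38.p6 gene table). Probe coordinates are mm7, from the scanner files. The identity of the reference RNA is not given in the sources used here.

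Groups were compared with limma 3.58.1 (R 4.3.3; lmFit, eBayes, two-sided), with Benjamini-Hochberg adjustment over all probes and a threshold of 0.05. The sarcomatoid contrast had group as its only term, and the lung contrast was fitted with 3 groups. Single probes were also tested by exact permutation of arrays (smallest p 0.00794 for 5 against 5). The p-values of these fits take the arrays as independent, although the 5 sarcomatoid tumors go back to 3 primaries. In the lung contrast the spread they rest on includes that of the adenocarcinomas. The lung fit with tumor number as a block used only the pairs of mammary and lung tumors, so its spread rests on very few arrays. Of several probes of a gene, the brightest over both channels stood for it.

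Every member and probe is named. Per pathway list the 2 genes of lowest p are named, and per member the 2 most correlated genes, except that for Tgfbr2 and Tgfbr3 1 of the 2 is not reported here. The members and lists were chosen with earlier results of these data known, and motifs were chosen after the differences were seen. Alternatives were scanner intensities (normexp with offset 50, loess), other scalings, a filter on dim probes, batch, slide and tumor number terms, and left-out arrays. The fit was tested on simulated data. Lung and mammary tumors of a number are paired through the culture they share per the study's methods. The table columns of scan batch 2 had a narrower interquartile range (0.763 to 0.820) than the others (1.07 to 1.31), which the scanner log ratios did not show (1.10 to 1.22 against 0.646 to 1.17).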

Additional observations from a re-analysis of the deposited data

Results flagged for a closer look

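Ltbp1 probe A_51_P281716 read -2.01 in adenocarcinoma 131, far below the other 4 adenocarcinomas, the nearest of which was at -0.04 and the highest at 0.56. The gap to the nearest was 0.765 of the range of the group, above Dixon's 95% critical value. Over the 16 member probes and both groups, 32 sets of 5 tumors were searched and 1 was found, where chance gives about 1.6.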

How the results depend on the processing

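No member probe passed the adjusted threshold under any alternative in either comparison, which shows no stability, since none passed in the reported fits either and the unadjusted calls of the first comparison moved between 2 and 7. Of 220 member differences under 22 alternatives in the first comparison, 211 kept their direction and 9 reversed. Of 190 under 19 alternatives in the second, 176 kept it and 14 reversed. In the first, the unadjusted p was below 0.05 for Tgfbr2 in all 22 alternatives and for Ltbp1 in 20. For Tgfbr1 it was so in 15 of the 22 and for Tgfbi in 10. Tgfbr1, Tgfbr2, Tgfbr3, Ltbp1, Smad3 and Tgfbi never reversed in the first comparison (Tgfbr2 0.65 to 1.46, Ltbp1 0.77 to 1.41, Tgfbr1 0.64 to 1.23, Tgfbi 0.73 to 1.33), nor did Tgfb1 (0.16 to 1.61) and Smad7 (-1.47 to -0.66) in the second. The cause of the changes below was not tested.

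Sarcomatoid against adenocarcinoma: 2 probes were called with 1 value per tumor number, 1 with arrays scaled to one spread, an alternative chosen after seeing the data, and 0 to 618 with an array left out (618 without tumor 470). Member probes at an unadjusted p below 0.05 numbered 2 with 1 value per tumor number, 3 with mammary tumors alone, 3 with scaled arrays and 3 to 7 with an array left out (3 without lung tumor 307 or tumor 131). All probes at that level numbered 2808 to 5702 with an array left out. No paired analysis was possible because no tumor number is in both groups, and with tumor number as a random block 0 probes were called and 6 member probes had an unadjusted p below 0.05. Among mammary tumors alone the sign turned for Tgfb1 (-0.26) and Smad7 (0.32). With an array left out it turned for Tgfb1 (-0.15 to 0.57), Tgfb2 (-0.54 to 0.065), Tgfb3 (-0.86 to 0.034) and Smad7 (-0.48 to 0.043).

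Lung against mammary: probes called numbered 2 from scanner intensities, 5 from scanner log ratios, 6 with median centring and 0 with scan batch as a term, with sarcomatoid arrays alone or with scaled arrays. With tumor number as a replicate block 0 were called, and with an array left out 0 to 84 (84 without tumor 470, and 0 to 5 without any other array but that of tumor 131). The pairing rests on the origin of the lung tumors, and the arrays of a pair correlated across probes at 0.553 (tumor 323) and 0.563 (tumor 307), below the highest value of each lung tumor with a mammary tumor of another number (0.574 and 0.573). Member probes at an unadjusted p below 0.05 numbered 1 from scanner intensities or log ratios and 1 to 4 with an array left out. All probes at that level numbered 2589 with scan batch as a term. The sign turned with scan batch as a term for Tgfbr1 (0.61), Tgfbr3 (0.15) and Ltbp1 (0.39), with the mean over probes for Tgfbr1 (0.55), Tgfbr2 (-0.10) and Smad3 (-0.070), and for Tgfbr3 from log ratios (0.089), with centring (0.049) and with scaling (0.050), where Tgfbi was at -0.18. With an array left out it turned for Tgfb2 (-0.15 to 0.53), Tgfb3 (-1.15 to 2.42), Tgfbr1 (-1.17 to 0.19) and Tgfbr3 (-0.17 to 0.13).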
